A study of Arabidopsis thaliana with 5 samples.

Results

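The amino acid transporter genes analysed here are 10 *Arabidopsis* genes with described roles in seeds, chosen by name and not by their values. They comprise the UMAMIT genes *UMAMIT11* (AT2G40900), *UMAMIT14* (AT2G39510), *UMAMIT18* (AT1G44800), *UMAMIT24* (AT1G25270), *UMAMIT25* (AT1G09380), *UMAMIT28* (AT1G01070) and *UMAMIT29* (AT4G01430), the amino acid permeases *AAP1* (AT1G58360) and *AAP8* (AT1G10010), and the cationic amino acid transporter *CAT6* (AT5G04770). All 10 had a row among the 33602 genes of the deposited table. RNA had been sequenced from endosperm nuclei of seeds at 4 days after pollination (DAP), with Col × L*er* seeds giving 2 libraries and L*er* × Col seeds giving 3 (the mother is written first). By the study's methods, the Col × L*er* seeds came from *dde2* mothers in Col that carried the INT line (*PHE1::NTF* and *PHE1::BirA*), pollinated with L*er*. The L*er* × Col seeds came from *pistillata* mothers in L*er*, pollinated with the INT line in Col. The nuclear tag was therefore inherited from the mother in one cross and from the father in the other. The sample titles give both parents as wild type and name neither the mutations nor the tag. In INTACT, tagged nuclei are biotinylated and captured on beads, and the promoter of *PHE1*, a gene active in endosperm, decides which nuclei carry the tag.

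The embryo and endosperm of a seed have no cell-to-cell connections with the maternal tissues around them, so amino acids that arrive in the phloem must be exported from maternal cells and taken up again by the filial tissues. UMAMIT proteins (Usually Multiple Acids Move In and out Transporters) are membrane proteins, several of which move amino acids in either direction and are regarded as exporters. AAP proteins are proton-coupled importers of a broad range of amino acids, and CAT proteins take up cationic and large neutral amino acids or move them across internal membranes.

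Levels are given in RPKM, that is reads scaled by gene length and by library size, as deposited. From the steps of low values of tRNA genes, the depth of the libraries was estimated, in units of 1e6 reads, at 12.55 to 28.51. The libraries differed in the level of the average gene. The median RPKM of 26712 protein-coding genes was 4.17 (replicate 2) and 7.57 (replicate 3) for Col × L*er*, against 11.0 (replicate 1), 1.81 (replicate 2) and 6.69 (replicate 3) for L*er* × Col. Replicate 1 of L*er* × Col stood apart, with 97.4% of protein-coding genes reaching 1 RPKM, against 58.9 to 83.4% in the other libraries. The study's methods set the first replicates of both crosses aside because of contamination, estimated from the ratio of maternal to paternal reads. For allele-specific calls they name 2 replicates of each cross. They also state that all replicates of L*er* × Col were merged. Values are therefore given for every library and with and without replicate 1. Each member was also read as a percentile among the protein-coding genes of its own library, which does not depend on the level of the average gene. Nothing in the labels says that the libraries of a cross came from separate plants, although the methods call them biological replicates. In bulk libraries, fewer nuclei of a type and less RNA per nucleus cannot be told apart.

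*UMAMIT25* was the highest of the 10 genes by mean level, and the highest of the 44 UMAMIT genes of the table in every library. It encodes a plasma membrane transporter described in endosperm cells. Its RPKM was 87.2 (replicate 2) and 140.0 (replicate 3) for Col × L*er*, against 58.2 (replicate 1), 62.0 (replicate 2) and 193 (replicate 3) for L*er* × Col. The crosses overlapped, with means of 114 ± 37.3 (SD, n = 2) and 105 ± 77.0 (SD, n = 3). Within each library, *UMAMIT25* lay between the 95.5th and the 98.3th percentile of protein-coding genes, the narrowest percentile range of the 10 genes. Only 669 of the 26712 protein-coding genes lay at or above the 95th percentile in every library. It held 54.7% (replicate 2) and 61.6% (replicate 3) of the RPKM summed over the 10 genes for Col × L*er*, against 19.1% (replicate 1), 74.4% (replicate 2) and 71.6% (replicate 3) for L*er* × Col. The low share in replicate 1 went with a higher sum of the 10 genes there, 304 RPKM against 83.4 to 270 in the other libraries, and with the lowest *UMAMIT25* value of the 5 libraries. That value (58.2) was close to the 62.0 of replicate 2 of L*er* × Col. By percentile, the lowest library was replicate 2 of Col × L*er*, at 95.5 against 95.6 in replicate 1. Replicate 1 was the lowest library for 4.5% of the 25579 genes that reached 1 RPKM in no fewer than 2 libraries, the filter on low values used below.

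**Figure D1:**
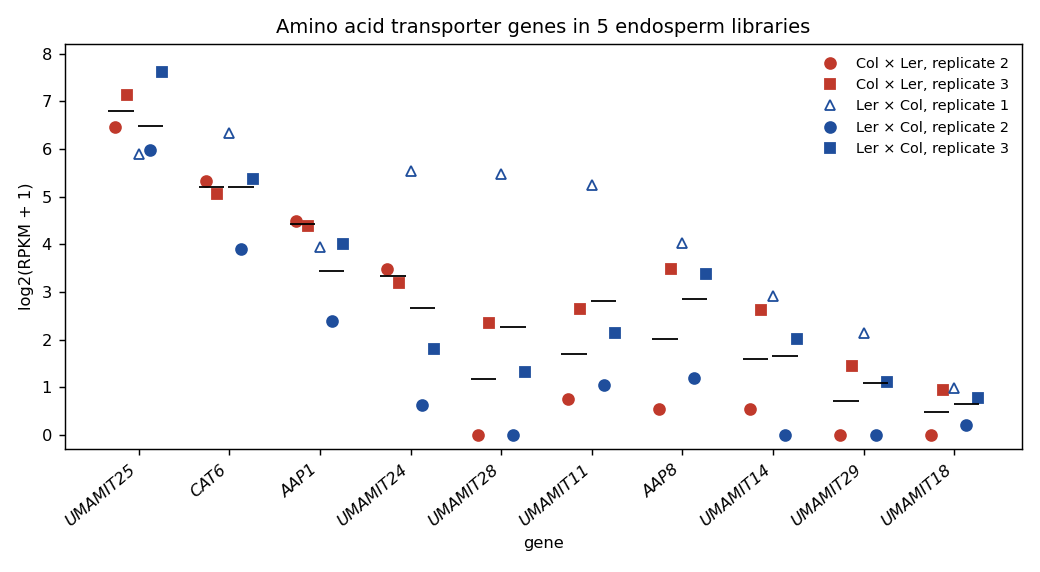
Level of each gene as log2(RPKM + 1) in the 5 libraries, in order of mean RPKM over all libraries. Each point is 1 library (red, Col × L*er*; blue, L*er* × Col; open triangle, replicate 1 of L*er* × Col), and black lines are the means of the log2 values of each cross. *UMAMIT25* is the highest gene in 4 of 5 libraries, and *UMAMIT24*, *UMAMIT28* and *UMAMIT11* are far higher in replicate 1 of L*er* × Col than in any other library.

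*CAT6*, which imports large neutral and cationic amino acids and is known from sink tissues, was next in the order. It had an RPKM of 39.4 (replicate 2) and 32.2 (replicate 3) for Col × L*er*, against 79.6 (replicate 1), 14.0 (replicate 2) and 40.1 (replicate 3) for L*er* × Col. The values of Col × L*er* lay inside the range of L*er* × Col, and the means were 35.8 ± 5.10 (SD, n = 2) and 44.6 ± 33.0 (SD, n = 3). *UMAMIT25* exceeded *CAT6* by 2.22-fold to 4.82-fold in 4 libraries and was lower than it in replicate 1 of L*er* × Col, at 0.731 of its level. *CAT6* lay between the 82.6th and 97.2th percentile of protein-coding genes. It was above *AAP1* in 5 of 5 libraries, by 1.62-fold to 5.54-fold.

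*AAP1*, an importer that supplies amino acids to the embryo and is expressed in other seed tissues, had an RPKM of 21.3 (replicate 2) and 19.8 (replicate 3) for Col × L*er*. For L*er* × Col it had 14.4 (replicate 1), 4.27 (replicate 2) and 15.0 (replicate 3). Both Col × L*er* values lay above all 3 L*er* × Col values, with means of 20.6 ± 1.07 (SD, n = 2) and 11.2 ± 6.01 (SD, n = 3). It was the only one of the 9 members passing the filter on low values whose crosses did not overlap. Of all 25579 genes passing it, 6.17% did not overlap with Col × L*er* higher, so 1 of 9 is not read as a result about the members. In the opposite direction it was 0 of 9 members and 1.92% of all genes. The percentiles of *AAP1* were 80.1 and 71.8 in Col × L*er*, and 61.9, 65.8 and 66.3 in L*er* × Col. They are ranks of the same RPKM values and add no separate evidence.

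These 3 genes were the members that reached 1 RPKM throughout, as 53.3% of protein-coding genes did. Between the lowest and the highest library, *UMAMIT25* differed by 3.33-fold, *AAP1* by 4.999-fold and *CAT6* by 5.68-fold. Among the 14247 protein-coding genes at that level in all libraries, 29.7% differed by no more than *UMAMIT25*, 59.1% by no more than *AAP1* and 66.8% by no more than *CAT6*. By reads estimated from the exon lengths of the annotation, *UMAMIT25* rested on about 1796 to 9047 reads per library, *CAT6* on about 861 to 6155 and *AAP1* on about 165 to 1002.

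*AAP8*, an importer with a described role in amino acid supply early in seed development, was lower and more variable than its relative *AAP1*. The translated coding sequences of the 2 permeases were identical at 76.6% of 475 aligned residues, each being the closest relative of the other among the 8 AAP genes. *AAP8* had an RPKM of 0.447 (replicate 2) and 10.08 (replicate 3) for Col × L*er*, against 15.2 (replicate 1), 1.28 (replicate 2) and 9.35 (replicate 3) for L*er* × Col. Both replicate 2 libraries were the low ones, and the crosses overlapped. The replicate 3 libraries differed by 1.08-fold. *AAP1* exceeded *AAP8* by 1.60-fold to 47.8-fold in 4 libraries, and was 0.945 of its level in replicate 1 of L*er* × Col. The value in replicate 2 of Col × L*er* rests on about 9.05 reads.

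*UMAMIT24*, described on the vacuolar membrane in the chalazal seed coat, had an RPKM of 10.08 (replicate 2) and 8.09 (replicate 3) for Col × L*er*, against 45.3 (replicate 1), 0.553 (replicate 2) and 2.49 (replicate 3) for L*er* × Col. Without replicate 1, both Col × L*er* libraries were higher than the remaining L*er* × Col libraries. The share of all genes separated in that way was not counted, so this is not read as a result about *UMAMIT24*. With replicate 1, the crosses overlapped. *UMAMIT28*, an amino acid exporter described in developing seeds, was listed at 0 in replicate 2 of each cross. It had an RPKM of 4.10 in replicate 3 of Col × L*er*, 1.498 in replicate 3 of L*er* × Col and 43.5 in replicate 1 of L*er* × Col. *UMAMIT11*, known from phloem unloading, had 0.685 (replicate 2) and 5.24 (replicate 3) for Col × L*er*, against 36.7 (replicate 1), 1.06 (replicate 2) and 3.38 (replicate 3) for L*er* × Col. For these 3 genes, replicate 1 of L*er* × Col was the highest library by far.

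In that library *UMAMIT24*, *UMAMIT28* and *UMAMIT11* lay at the 93.4th, 93.0th and 90.6th percentile of protein-coding genes. Elsewhere *UMAMIT24* lay between the 34.4th and 65.3th, *UMAMIT28* between the 11.2th and 38.4th and *UMAMIT11* between the 33.1th and 42.8th. Relative to the highest of the other 4 libraries, replicate 1 was 10.6-fold higher for *UMAMIT28*, a ratio reached by 1.4% of the 25579 genes. It was 7.01-fold higher for *UMAMIT11* (reached by 4.9%) and 4.50-fold higher for *UMAMIT24* (reached by 11.1%). The percentages describe these libraries, and the genes were singled out after their values were seen. Replicate 1 was the highest library for 7 of the 9 members passing the filter and for 46.9% of all genes passing it. The other 2 of the 9 were *UMAMIT25*, highest in replicate 3 of L*er* × Col, and *AAP1*, highest in replicate 2 of Col × L*er*.

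**Figure D2:**
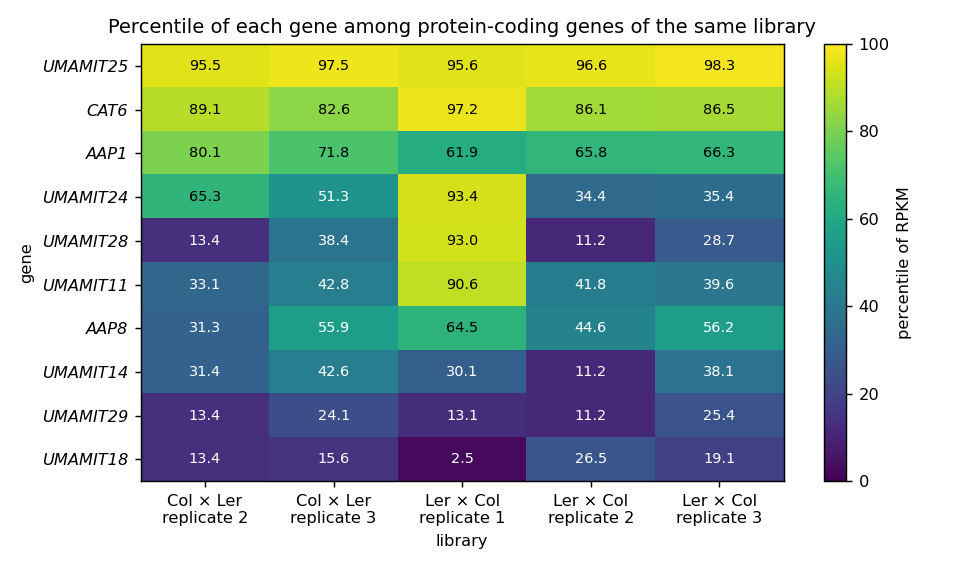
Percentile of each gene (rows) among 26712 protein-coding genes of the same library (columns), from 0 to 100 by RPKM. A gene listed at 0 takes the middle percentile of all genes at 0. *UMAMIT25* stays between 95.5 and 98.3, while *UMAMIT24*, *UMAMIT28* and *UMAMIT11* exceed 90 in replicate 1 of L*er* × Col alone.

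*UMAMIT14*, like *UMAMIT11* known from phloem unloading, had an RPKM of 0.454 (replicate 2) and 5.16 (replicate 3) for Col × L*er*, against 6.57 (replicate 1), 0 (replicate 2) and 3.04 (replicate 3) for L*er* × Col. *UMAMIT29*, an exporter described in seeds, was listed at 0 in both replicate 2 libraries and had 1.70 in replicate 3 of Col × L*er*, against 3.41 (replicate 1) and 1.16 (replicate 3) for L*er* × Col. *UMAMIT18*, also named *SIAR1* and known from vascular tissue, was the lowest member, with an RPKM of 0 and 0.925 in Col × L*er* and 0.987, 0.155 and 0.707 in L*er* × Col. All 3 genes overlapped between the crosses. In replicate 1 of L*er* × Col, where the average gene was highest, *UMAMIT18* was at the 2.5th percentile, and *UMAMIT29* and *UMAMIT14* at the 13.1th and 30.1th. In this library, genes of one family thus lay on both sides of the median of 11.0 RPKM. *UMAMIT18* rests on at most about 41.8 reads in any library. A value of 0 is reported as listed at 0. Of 9650 genes that reached 10 RPKM in the replicate 3 libraries and in replicate 1 of L*er* × Col, 43 were listed at 0 in replicate 2 of Col × L*er* and 22 in replicate 2 of L*er* × Col.

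The order of the members by mean RPKM was *UMAMIT25*, *CAT6*, *AAP1*, *UMAMIT24*, *UMAMIT28*, *UMAMIT11*, *AAP8*, *UMAMIT14*, *UMAMIT29* and *UMAMIT18*. *CAT6* over *AAP1* and *UMAMIT24* over *UMAMIT28* held in 5 of 5 libraries. *UMAMIT25* over *CAT6*, *AAP1* over *UMAMIT24*, *AAP8* over *UMAMIT14* and *UMAMIT14* over *UMAMIT29* held in 4 of 5. *UMAMIT28* over *UMAMIT11* held in 1 of 5, replicate 1 of L*er* × Col, and *UMAMIT11* was the higher in the other 4. The order of this pair by mean thus rested on 1 library. *UMAMIT11* over *AAP8* held in 2 of 5 and *UMAMIT29* over *UMAMIT18* in 3. Differences between neighbours were not tested. Without replicate 1 of L*er* × Col, *AAP8* moved up to the fifth place and *UMAMIT28* down to the eighth. *UMAMIT24* passed *AAP1* for the third place without replicate 2 or 3 of Col × L*er* or replicate 3 of L*er* × Col, so the order of this pair by mean was lost in 3 of 5 cases. The annotated exons of *UMAMIT24* (1068 bases) hold coding sequence only, whereas those of the other members (1598 to 3025 bases) also hold untranslated sequence, which bears on levels per kilobase.

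All 10 genes lie on nuclear chromosomes of the TAIR10.1 annotation and overlap no other annotated gene. *UMAMIT25* lies on the minus strand of chr1:3026062-3029549 with 7 exons, *CAT6* on the plus strand of chr5:1378621-1382478 with 3 exons, and *AAP1* on the plus strand of chr1:21676388-21680519 with 6 exons. *UMAMIT18* lies on the minus strand of chr1:16913994-16917053 with 7 exons. Because the highest and the lowest member are both UMAMIT genes, their promoter windows, from 250 bases before to 50 bases after the annotated start, are shown from RefSeq's TAIR10.1 assembly, 5′ to 3′ on the strand of the gene. Capitals mark matches to any of the motifs searched.
*UMAMIT25*, chr1:3029500-3029799, minus strand: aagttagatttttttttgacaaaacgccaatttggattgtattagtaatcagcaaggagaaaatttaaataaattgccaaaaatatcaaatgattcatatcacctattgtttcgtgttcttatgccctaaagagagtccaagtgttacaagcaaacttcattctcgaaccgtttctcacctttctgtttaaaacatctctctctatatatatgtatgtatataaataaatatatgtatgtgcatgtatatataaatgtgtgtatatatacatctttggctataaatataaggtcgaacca
*UMAMIT18*, chr1:16917004-16917303, minus strand: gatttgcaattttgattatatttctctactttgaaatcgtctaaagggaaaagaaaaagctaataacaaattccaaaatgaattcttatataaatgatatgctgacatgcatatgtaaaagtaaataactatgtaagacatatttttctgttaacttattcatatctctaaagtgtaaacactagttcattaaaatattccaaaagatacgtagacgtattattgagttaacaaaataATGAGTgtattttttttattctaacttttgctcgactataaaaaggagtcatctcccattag
The motifs, searched on both strands, were ACTCAT (bound by S1 group bZIP factors), TGAGTCA (the GCN4 motif), TGTAAAG (the prolamin box), CACGTG (the G-box) and TTGACC (a form of the W-box). No motif matched in the window of *UMAMIT25*. In that of *UMAMIT18*, the capitals are ACTCAT read on the opposite strand, starting 12 bases before the annotated start. Among the other 8 members there was 1 match, TTGACC in *CAT6*. Of 27443 promoters of protein-coding genes, 14.7% held ACTCAT, 3.5% TGAGTCA, 5.2% TGTAAAG, 7.7% CACGTG and 14.2% TTGACC. The match describes the sequence and not a binding site.

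The crosses were compared to ask whether the total level of a transporter, with the alleles of both parents added up, differed with the direction of the cross. No difference was detected for any of the 9 members passing the filter, with 0 higher and 0 lower in Col × L*er* at a Benjamini-Hochberg adjusted p under 0.05 in limma. Over all 25579 genes, limma called 0.00782%, so that almost no gene passed in this design. At an unadjusted p under 0.05 in limma there were 266 of the 25579 genes and 0 of the 9 members. So few genes reached that level that the 0 is not read as a result about the members. The log2 fold changes (positive where Col × L*er* was higher, on log2(RPKM + 1), which shrinks the differences of genes with low levels) had a median of -0.06 over the 9 members and of 0.10 over all genes, and 3 of the 9 were positive. *UMAMIT18* did not pass the filter, and without a filter its value was -0.18 (standard error 0.78).
*AAP1* had the largest positive value, 0.99 (standard error 0.92, 95% interval -0.81 to 2.79, adjusted p = 0.999966 from limma). The most negative was that of *UMAMIT11*, at -1.11 (standard error 1.25, interval -3.56 to 1.35, adjusted p = 0.999966 from limma). *UMAMIT28* followed with -1.09 (interval -3.66 to 1.48), and *AAP8* with -0.86 (interval -3.25 to 1.53). *UMAMIT24* had 0.67, *UMAMIT25* 0.31, *CAT6* -0.01, *UMAMIT14* -0.06 and *UMAMIT29* -0.37. For *UMAMIT25* the interval ran from -1.14 to 1.76 and for *CAT6* from -1.51 to 1.49, so differences of 2-fold either way were within the error of the best measured members. Limma's estimates of the spread were shared fully across genes of like level, so that these errors are those of a typical gene.
The direction of 8 of the 9 members rested on 1 library or another. Without replicate 1 of L*er* × Col, the log2 fold change of *UMAMIT28* was 0.51, that of *UMAMIT11* 0.11, that of *UMAMIT14* 0.57, that of *UMAMIT29* 0.16 and that of *CAT6* 0.56, all turned to positive, while *UMAMIT24* moved from 0.67 to 2.11. Without replicate 2 of L*er* × Col, *UMAMIT24* was -0.34. Without replicate 2 of Col × L*er*, *AAP8* turned to 0.61, *UMAMIT14* to 0.98, *UMAMIT28* to 0.08 and *UMAMIT29* to 0.35. *UMAMIT25* was -0.03 and *CAT6* 0.13 without replicate 3 of Col × L*er*, and *UMAMIT14* was 0.12 and *CAT6* 0.07 without replicate 3 of L*er* × Col. *AAP1* was positive under every alternative run, between 0.46 and 1.26, and in none of them was a member called. Within the same replicate number, *AAP1* was 4.999-fold higher in Col × L*er* between the replicate 2 libraries and 1.32-fold between the replicate 3 libraries. *UMAMIT24* was 18.2-fold and 3.25-fold higher in the same comparisons. Over all genes passing the filter, 66.2% were higher in Col × L*er* between the replicate 2 libraries and 60.2% between the replicate 3 libraries.

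**Figure D3:**
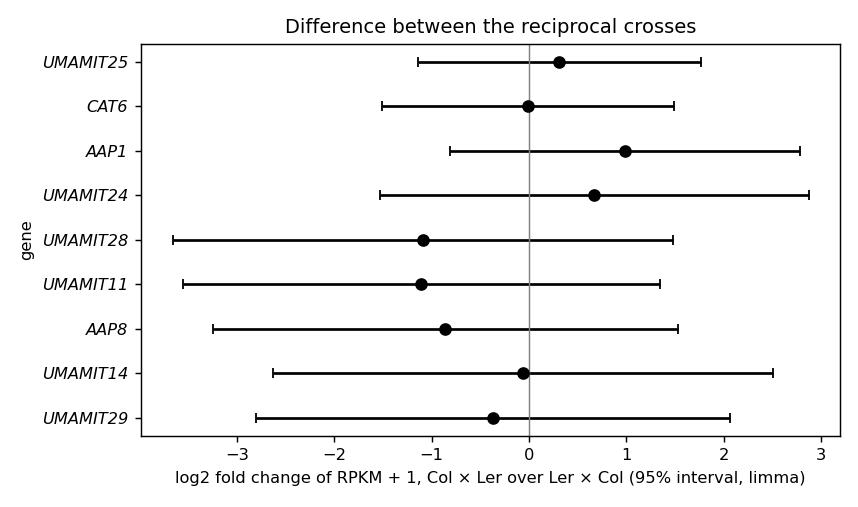
Difference between the crosses for the 9 members that passed the filter on low values. Points are limma's log2 fold changes of RPKM + 1 (positive where Col × L*er* was higher), and bars are 95% intervals. Every interval includes 0, from *AAP1* at 0.99 to *UMAMIT11* at -1.11.

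The replicate 2 and 3 libraries of each cross were also set against each other. In L*er* × Col, all 9 members had a higher RPKM in replicate 3 than in replicate 2, as did 88.2% of all genes passing the filter. In Col × L*er*, 6 of the 9 were higher in replicate 3, against 75.6% of all genes. The 3 exceptions in Col × L*er* were *UMAMIT24*, *AAP1* and *CAT6*, with ratios of replicate 3 to replicate 2 of 0.803, 0.929 and 0.817. In L*er* × Col the same ratios were 4.51, 3.51 and 2.86. *AAP8* had the largest ratios in both crosses of the genes with values above 0 in all libraries, 22.6 and 7.33. No replicate exists for these library-to-library ratios, and they were not tested.

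Among the other amino acid transporter genes, 56 had a row in the table, namely 37 UMAMIT, 6 AAP, 8 CAT, 2 LHT and 3 ProT genes. LHT proteins import lysine, histidine and other amino acids, and ProT proteins import proline and related compounds. Of the 56, 12 reached 1 RPKM throughout, and their median was between 0.616 and 8.52 RPKM in single libraries. Of 47 that passed the filter, 0 were called higher and 0 lower by limma, with 0 at an unadjusted p under 0.05, a median log2 fold change of -0.35 and a range of -1.79 to 1.25. The highest by mean level was *CAT9* (AT1G05940), with 36.4 and 49.3 RPKM in Col × L*er* and 33.3, 14.0 and 44.6 in L*er* × Col. It was below *CAT6* in replicate 1 of L*er* × Col (79.6) and above it in replicate 3 of Col × L*er* (32.2). *UMAMIT15* (AT5G13670) had 21.4 and 34.7 in Col × L*er*, and 8.76, 10.5 and 23.8 in L*er* × Col. *CAT2* (AT1G58030), a transporter of the vacuolar membrane, had 14.1 and 25.6, and 27.0, 2.89 and 22.3.
*UMAMIT15* was the next highest UMAMIT gene after *UMAMIT25* in 4 libraries. *UMAMIT25* alone held 45.9% (replicate 2) and 39.2% (replicate 3) of the RPKM summed over all UMAMIT genes for Col × L*er*. For L*er* × Col it held 57.8% (replicate 2) and 55.0% (replicate 3), but 11.3% in replicate 1, and *UMAMIT24* came next with 45.3 RPKM.

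**Figure D4:**
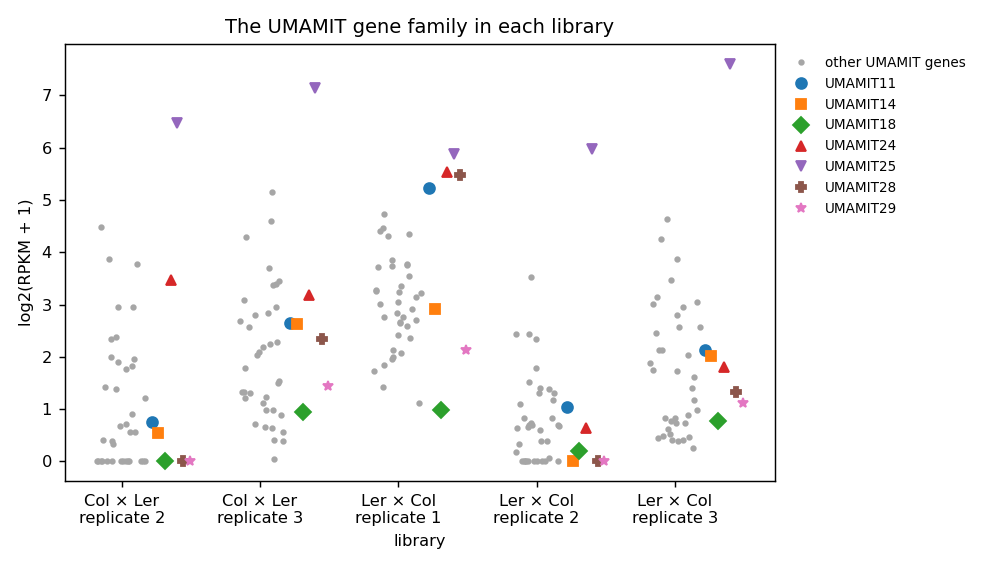
The 44 UMAMIT genes in each library, as log2(RPKM + 1). Grey points are the 37 UMAMIT genes that are not among the 10 genes of interest, and coloured symbols are the 7 that are, set side by side at the right of each library. *UMAMIT25* is the top symbol in every library, and *UMAMIT24*, *UMAMIT28* and *UMAMIT11* come nearest to it in replicate 1 of L*er* × Col, where they lie above all 37 other family members.

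Close relatives of the 3 genes that were high in replicate 1 of L*er* × Col were also read, a choice made after the values were seen. The closest relative of *UMAMIT28* by translated coding sequence was *UMAMIT27* (79.5% identity). The closest of *UMAMIT11* was *UMAMIT10* (73.3%), and that of *UMAMIT24* was *UMAMIT23* (57.2%). In replicate 1 these relatives had an RPKM of 5.27, 13.5 and 25.4, and in the other libraries at most 0.391, 2.33 and 6.12. This was not particular to the relatives. Of the 56 other transporters, taken without the filter, 45 were highest in replicate 1, against 46.9% of all genes passing it. Of the 47 passing the filter, 11 (23.4%) exceeded the highest other library by at least the ratio of *UMAMIT24*. For all genes passing it the share was 11.1%. The transporters that did not pass, *UMAMIT27* among them, reached 1 RPKM in replicate 1 alone, so the 23.4% leaves out genes high only in that library. *UMAMIT29*, which shared 72.3% of residues with *UMAMIT28*, had only 3.41 there, a ratio of 12.8 between the pair. *UMAMIT25* had no close relative, with 38.9% identity to *UMAMIT9* as the highest. *CAT6* shared 83.0% with *CAT7*, which had an RPKM between 0.0908 and 30.4. How reads that fit both genes of such a pair were assigned is not given in the sources used here.

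The profile of *UMAMIT25* over the 5 libraries was matched against 16329 genes with a mean RPKM of at least 5. After the mean of each gene was subtracted, AT3G10880 had the smallest root mean square difference of log2(RPKM + 1), at 0.05, followed by AT5G41670 with 0.06 and AT3G52960 with 0.07. AT3G10880 had 6.99 and 12.2 RPKM in Col × L*er* and 4.12, 4.73 and 17.5 in L*er* × Col, a profile of the same shape at a lower level. With 5 libraries and so many genes, close profiles are found readily.

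Markers of endosperm and of tissues that could come along with it were read in the same libraries. Of 12 endosperm markers, 9 to 12 reached 1 RPKM, depending on the library. Their summed RPKM was 448 to 886 and was carried by *ZOU*, with 190 to 777. The median over the list ran the other way, from 6.04 in replicate 2 of L*er* × Col, where the sum was highest, to 27.2 in replicate 3 of Col × L*er*, where it was lowest. *PHE1* was between 29.7 and 51.0. Of 13 seed coat markers, 7 to 13 reached 1 RPKM, and their sums were 89.8 and 393 for Col × L*er*, against 283 (replicate 1), 46.1 (replicate 2) and 389 (replicate 3) for L*er* × Col. *TT16* was listed at 0 in both replicate 2 libraries, as was the endosperm marker *AGL36*. *TT2* and *TTG2* were listed at 0 in that of Col × L*er*, and the endosperm marker *IKU2* in that of L*er* × Col. Of all 33602 genes, 36.9% and 32.1% were listed at 0 in these libraries, *UMAMIT28* and *UMAMIT29* among them. The 6 photosynthesis genes summed to 704 to 4741 RPKM, the lowest sum being that of replicate 2 of L*er* × Col.
The 4 phloem markers summed to 46.5 RPKM in replicate 1 of L*er* × Col and to 5.31 to 18.5 in the other libraries, with *SEOR1* at 0 in both replicate 2 libraries. All 6 embryo markers reached 1 RPKM in replicate 1, with a median of 16.7, against 2 to 5 of 6 and medians of 0.0692 to 2.24 elsewhere, and *PLT2* was listed at 0 in both replicate 2 libraries. The embryo marker *WOX8* went the other way, at 24.2 in replicate 1 against 65.4 and 119 for Col × L*er*, with 103 in replicate 3 of L*er* × Col. The embryo sum of replicate 1 (109) was below the highest (137). The 4 phloem markers and 5 of the 6 embryo markers were thus highest in the library in which *UMAMIT11*, *UMAMIT24* and *UMAMIT28* were highest, as were 46.9% of all genes passing the filter. So were the seed coat markers *TT10*, *TT12*, *TT8*, *TTG2*, *AHA10* and *TT16* and the endosperm markers *MEA*, *IKU2* and *EDE1*. The other seed coat and endosperm markers and the photosynthesis genes were highest in other libraries. The part of the marked tissues in the values of the UMAMIT genes was not tested.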

How the data were processed

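Gene levels of 5 endosperm libraries were taken from the RPKM values the authors deposited, which they made with TopHat2 version 2.1 on TAIR10 per the submitters' processing notes. The gene counter is not given in the sources used here. Libraries carry the replicate numbers of the file columns and sample descriptions, whereas in the titles those of Col × L*er* are numbered 1 and 2. The first replicates were made from a larger mass of siliques.

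The members were given by name and not picked by their values. The other gene lists were chosen with earlier results of these data known. The crosses were compared with limma 3.58.1 (R 4.3.3, variance trend) on log2(RPKM + 1), with the cross as the only term, for genes reaching 1 RPKM in no fewer than 2 libraries, and p-values were adjusted by Benjamini-Hochberg over all of them. They measure the spread between these libraries. All 10 members are named, and of other genes the 3 highest transporters and the 3 profiles most like that of *UMAMIT25*. Ratios between libraries and between members were chosen after the values were seen.

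The fit was tested on simulated data. With a spread drawn for each gene from its own estimate, limma called none of the strongly changed genes, and with a spread following the mean level, a model added after that outcome, it called most. At a quarter-size spread nearly all were called under both. Few calls are therefore no evidence that levels were equal. The real fit pooled the spread across genes fully.

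Depth was estimated from RPKM steps of 40 to 326 tRNA genes per library, of which 96.8 to 98.5% gave whole reads within 0.1. The depth was chosen to make this share high, so the share is no separate check. Names, coordinates, promoters and coding sequences, translated for identities, came from RefSeq's TAIR10.1, with 32835 of 33602 identifiers matched. Python 3.11.15, pandas 2.3.3, NumPy 2.4.6, Biopython 1.88 and matplotlib 3.10.9 were used. Alternatives were another pseudocount, filter or normalization, no variance trend, replicate blocks and leaving out each library.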

Additional observations from a re-analysis of the deposited data

How the results depend on the processing

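No member was called under any alternative run. Fold changes cannot move with the filter or the variance trend. The count of all called genes, 2 as reported, was 7 with a pseudocount of 0.1, 6 with a pseudocount of 5, 6 without a filter, 6 with an RPKM of at least 1 in all libraries, and 0 with quantile normalization, with median centring and without the variance trend. With 1 library left out it ranged from 0 to 86. It was 0 without replicate 2 of Col × L*er* or replicate 1 of L*er* × Col, 8 without replicate 3 of Col × L*er*, 21 without replicate 2 of L*er* × Col and 86 without replicate 3 of L*er* × Col. The cause was not tested.

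With the replicate block by the numbers of the descriptions it was 86 (77 higher and 9 lower in Col × L*er*), and 90 (81 and 9) with replicate 1 of L*er* × Col also left out, an alternative chosen after seeing the data. The samples share only a number, since the labels tie no pair and there are 2 pairs. Replicate 3 minus replicate 2 correlated at 0.29 between the crosses, across 25579 genes that are not independent replicates. This block leaves replicate 1 no part in the fold changes, so with or without it, and without replicate 1 alone, the values were the same. *UMAMIT11* was 0.11, *UMAMIT14* 0.57, *UMAMIT28* 0.51, *UMAMIT29* 0.16 and *CAT6* 0.56. With the replicate block by the numbers of the titles, whose fold changes equal those without replicate 3 of L*er* × Col, the count was 2, *UMAMIT14* was 0.12 and *CAT6* 0.074.

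With a pseudocount of 0.1, *UMAMIT14* was 0.42 and *CAT6* 0.0024. With quantile normalization *UMAMIT14* was 0.46, *UMAMIT25* -0.16 and *UMAMIT29* 0.040. With 1 library left out, *UMAMIT11* ranged from -2.05 to 0.11, *UMAMIT14* from -1.11 to 0.98, *UMAMIT24* from -0.34 to 2.11, *UMAMIT25* from -0.026 to 0.87, *UMAMIT28* from -2.27 to 0.51, *UMAMIT29* from -1.08 to 0.35, *AAP8* from -2.33 to 0.61, *CAT6* from -0.65 to 0.56 and *AAP1* from 0.46 to 1.26. Without replicate 3 or 2 of Col × L*er* the single remaining library was assumed to vary like the others. The median of the members ranged from -1.08 to 0.53 over all alternatives. *UMAMIT18* was fitted only without the filter.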
